A study of Mus musculus with 12 samples.

Results

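The 10 genes described here mark endothelial cells and were followed in RNA of the mouse left ventricle, and were taken by symbol from a count table of 56748 genes, where all 10 were found. They were Pecam1, Cdh5, Esam, Rgcc, Tie1, Tek, Emcn, Cldn5, Egfl7 and Fabp4. Every library came from C57BL/6J mice labelled wild type that were given AAV9, an adeno-associated virus vector, through the tail vein. A first group had the control vector and sham surgery (4 libraries), the next had the control vector and myocardial infarction by ligation of the left anterior descending coronary artery (4 libraries), and the last had the AAV9-Irx3 vector and infarction (4 libraries). Tissue was collected 14 days after surgery, and polyadenylated RNA was sequenced. No group joined the Irx3 vector to sham surgery, so the vector was compared in infarcted hearts alone. The sources used here do not give the promoter of the vector, nor the age and sex of the mice. Left ventricle is the labelled tissue, and cardiomyocytes the labelled cell type. Transcripts of several cell types were present, and the tissue is treated here as whole ventricle.

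Endothelial cells line blood vessels. Adherens and tight junctions hold neighbouring cells together, and receptors on their surface set whether the wall stays quiet or sprouts. In the heart most endothelial cells belong to the dense capillary bed between muscle fibres, which passes fatty acids to the myocytes. Myocardial infarction removes part of that bed and is followed by growth of vessels in and around the scar. By role, the 10 genes fall into junction proteins (Pecam1, which encodes CD31, Cdh5 for VE-cadherin, Esam, and Cldn5 for claudin-5), receptors of the angiopoietin system (Tie1, and Tek for TIE2), a surface mucin (Emcn for endomucin), a secreted protein (Egfl7) and intracellular proteins (Rgcc, a regulator of the cell cycle, and Fabp4, a fatty acid binding protein of capillary endothelium, fat cells and macrophages).

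All 10 genes passed the filter on low counts, with 206 to 7947 reads per gene and library. The depth of a library was 15966982 to 18441830 counts for sham hearts, 16081360 to 18738571 for infarcted hearts with control vector and 13352604 to 19236721 for those with Irx3 vector. Irx3 transcript, the check of the vector, was at 24.5, 23.1 and 393 CPM (counts scaled by library size and TMM factor) in the 3 groups in that order, a log2 fold change of 4.09 for Irx3 vector over control vector (edgeR adjusted p = 1.48e-06). The 4 libraries with Irx3 vector stood apart from the other 8 in ways that touch each comparison with the vector. Mitochondrially encoded genes took 10.4 to 19.01% of their counts, against 4.50 to 8.22% in sham hearts and 0.926 to 5.64% after infarction with control vector. Their levels were also lower the higher the GC content of a transcript (Spearman rho of a gene's deviation from its mean over libraries against GC content, -0.63 to -0.53), where the same measure was positive in each of the other 8 (0.04 to 0.60). Results are therefore given without and with a correction of each library for GC content, and the part of either measure in the differences was not tested beyond that.

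Per kilobase of transcript, which allows genes to be compared with each other, Fabp4 was the most abundant of the 10 in sham hearts, at 425 CPM per kilobase ± 28.7 (SD, n = 4). Cdh5 (96.7 ± 7.29), Egfl7 (96.4 ± 8.57) and Esam (89.8 ± 6.80) followed and did not differ beyond their spread. Rgcc (81.4 ± 6.95), Pecam1 (74.0 ± 5.61), Tie1 (73.0 ± 4.85) and Cldn5 (61.4 ± 24.7) came next. Rgcc and Pecam1 lay more than 1 SD apart, Pecam1 and Tie1 did not, and the wide spread of Cldn5 took in both Tie1 and Pecam1. Tek (14.1 ± 1.11) and Emcn (6.58 ± 1.26) lay well below, so the TIE receptor that binds angiopoietins was several times less abundant as transcript than its partner Tie1. After infarction with Irx3 vector Fabp4 was still the most abundant (227 ± 63.4), and Egfl7 (58.6 ± 2.23), Pecam1 (54.1 ± 3.48) and Cdh5 (53.6 ± 3.13) formed the next group. These values are without GC correction. With it, the mean log2 CPM of that group, not divided by length, went from 7.63 to 6.93 for Fabp4 and from 6.35 to 6.75 for Egfl7. Distances between genes in that group thus depend on the correction.

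Infarction was first compared with sham surgery among hearts that had the control vector. Cdh5, Esam, Rgcc and Cldn5 fell, by 1.34-fold to 1.69-fold, while Pecam1, Egfl7, Fabp4, Tek, Tie1 and Emcn did not pass the test. A gene was called at an edgeR adjusted p under 0.05 over all 15742 genes tested, and 48.7% of those were called in this comparison (22.4% lower and 26.3% higher). The 4 of 10 members called lower are to be read against that share. In 3 of them, Cdh5, Esam and Rgcc, all infarcted libraries lay below all sham libraries, and groups were apart in this way for 47.3% of all genes (22.8% lower, 24.5% higher). The members' median log2 fold change was -0.32, against 0.01 over all genes tested. Their summed level was 1876 CPM ± 87.3 (SD, n = 4) in sham hearts and 1535 ± 227 (SD, n = 4) after infarction. That difference depends on the TMM factors, which were 0.836 to 0.893 in sham hearts and 1.02 to 1.05 after infarction. Without the factors, the members took 0.156 to 0.168% of all counts in sham hearts. After infarction they took 0.131 to 0.181%, so the groups overlapped. In whole tissue, fewer endothelial cells and less RNA per endothelial cell cannot be told apart.

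**Figure D1:**
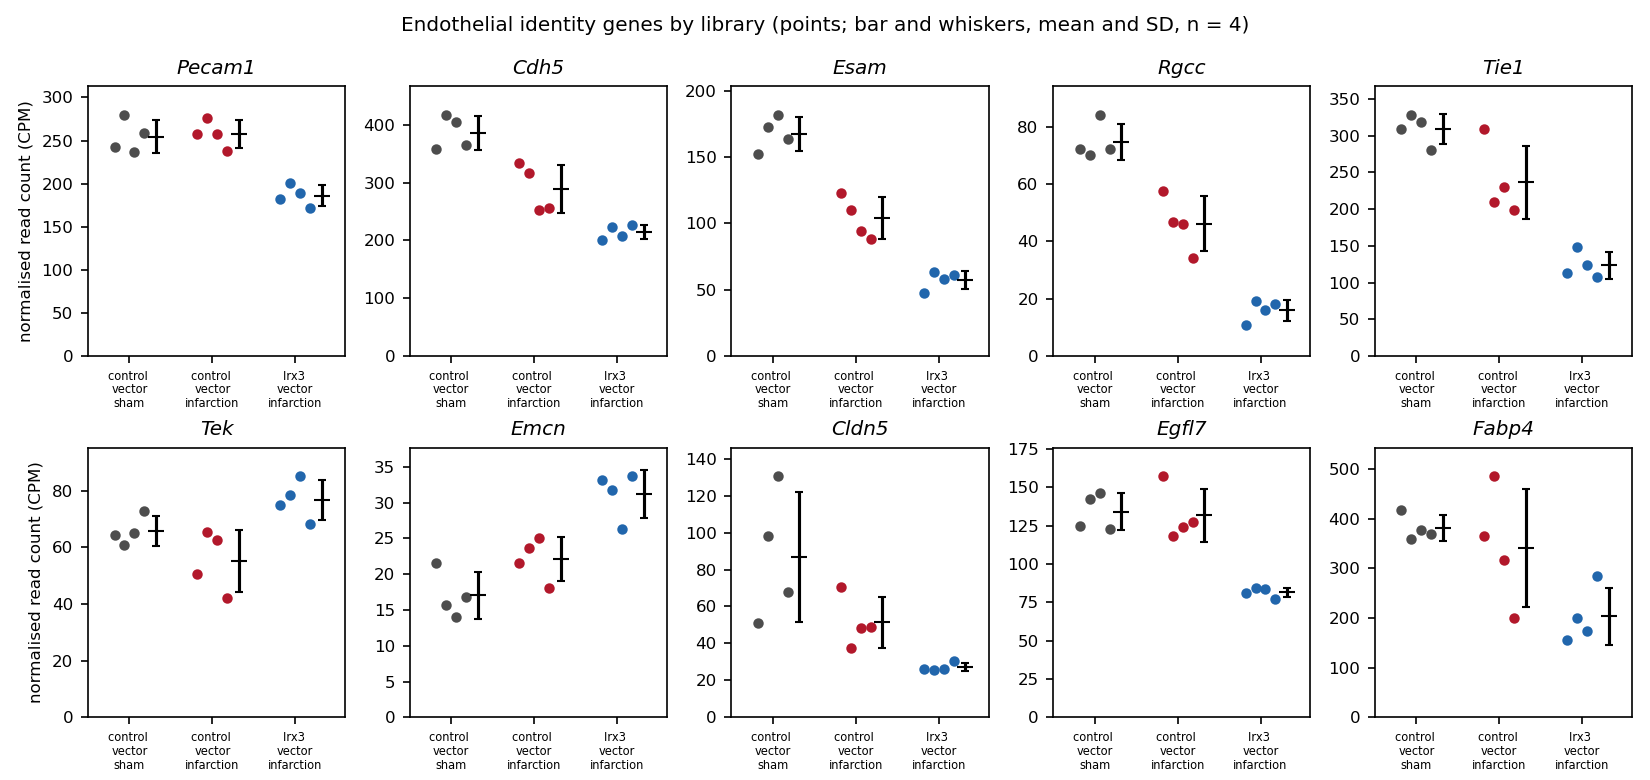
Normalised read counts (CPM, axes from 0, without GC correction) of the 10 genes in each library, by group, with the mean and SD of 4 libraries beside the points. Rgcc and Esam step down from sham (74.7 and 167 CPM) through infarction (46.2 and 104) to infarction with Irx3 vector (15.997 and 57.5) with no overlap between groups. Pecam1 is level between sham and infarction (255 and 257). Tek and Emcn have their highest mean with Irx3 vector (76.7 and 31.2), where Tek overlaps sham.

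Among the junction genes, Pecam1, an adhesion receptor found along the contacts of endothelial cells and also on platelets and leukocytes, was at 242, 279.8, 237 and 259 CPM in sham replicates 1 to 4. After infarction with control vector it was at 258, 277, 258 and 237 CPM. The groups overlapped throughout, with a log2 fold change of 0.02 (edgeR adjusted p = 0.917, SE 0.11). Cdh5, the cadherin of endothelial adherens junctions, was at 358, 417, 405 and 365 CPM in sham hearts and at 333, 316, 252 and 255 CPM after infarction. Every infarcted library was below every sham library, and Cdh5 fell by 0.42 on the log2 scale (edgeR adjusted p = 0.0195, SE 0.13). The call of Cdh5 ended without sham replicate 2 (edgeR adjusted p = 0.057) or sham replicate 3 (edgeR adjusted p = 0.0515). Cdh5 passed the test after infarction and Pecam1 did not, and the difference between them was not tested.

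Esam, an immunoglobulin-type adhesion molecule of endothelial tight junctions and platelets, was at 152, 173, 182 and 163 CPM in sham hearts. After infarction it was at 123, 110.2, 94.5 and 88.4 CPM. The groups were clear of each other, and Esam fell by 0.69 on the log2 scale (edgeR adjusted p = 0.000958, SE 0.13). Cldn5, the claudin of endothelial tight junctions, was at 51.0, 98.4, 130.4 and 67.8 CPM in sham hearts, the widest spread of the 10 (coefficient of variation 40.3%). It was at 70.8, 37.6, 48.5 and 48.7 CPM after infarction, so that sham replicates 1 and 4 lay within the range of the infarcted hearts. Cldn5 fell by 0.76 on the log2 scale (edgeR adjusted p = 0.0241, SE 0.25), a call that rested on the high sham libraries, since without sham replicate 3 the change was -0.50 (edgeR adjusted p = 0.0975) and without sham replicate 2 it was -0.69 (edgeR adjusted p = 0.0595).

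Tie1, an endothelial receptor tyrosine kinase without a firmly established ligand of its own that pairs with TIE2, was at 309, 328, 319 and 281 CPM in sham hearts and at 309, 209, 231 and 199 CPM after infarction. Replicate 1 of the infarcted group sat at the sham level and the other 3 lay below it. The log2 fold change was -0.38 (edgeR adjusted p = 0.0581, SE 0.16), and without that replicate it was -0.59 (edgeR adjusted p = 0.00541). Tek, the angiopoietin receptor, ran from 60.7 to 72.9 CPM in sham hearts and was at 50.5, 65.4, 62.6 and 42.0 CPM after infarction, a log2 fold change of -0.25 (edgeR adjusted p = 0.147, SE 0.14). It passed without replicate 2 of the infarcted group, at -0.40 (edgeR adjusted p = 0.0285). With the GC correction Tie1 was called, with a log2 fold change of -0.40 (edgeR adjusted p = 0.0306), and Tek was not, at -0.19 (edgeR adjusted p = 0.173).

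Emcn, a sialomucin of capillary and venous endothelium, was at 21.6, 15.7, 14.1 and 16.8 CPM in sham hearts. After infarction it was at 21.6, 23.7, 25.1 and 18.1 CPM. It was the member with the largest positive value (log2 fold change 0.38, edgeR adjusted p = 0.0572, SE 0.15), and sham replicate 1 lay among the infarcted hearts. Without that replicate Emcn was called higher, at 0.51 (edgeR adjusted p = 0.0168), as it was with the GC correction, at 0.45 (edgeR adjusted p = 0.0102). Without the correction edgeR called 0 members higher at an adjusted p under 0.05. Emcn alone was higher at an unadjusted p under 0.05 in the edgeR test, 1 of 10, and the DESeq2 test also called 0.

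Egfl7, a secreted protein of endothelium whose gene hosts the microRNA miR-126, was level, at 123 to 146 CPM in sham hearts and 118 to 157 CPM after infarction (log2 fold change -0.03, edgeR adjusted p = 0.865, SE 0.11). Rgcc was at 72.4, 70.1, 84.2 and 72.2 CPM in sham hearts and at 57.7, 46.8, 46.2 and 34.2 CPM after infarction. Its groups did not overlap, and Rgcc fell by 0.69 on the log2 scale (edgeR adjusted p = 0.00634, SE 0.18). Fabp4 was at 417, 358, 377 and 369 CPM in sham hearts and spread to 365, 485, 316 and 199 CPM after infarction, with a log2 fold change of -0.16 (edgeR adjusted p = 0.619, SE 0.24). Its spread after infarction (coefficient of variation 34.6%) was wider than in sham hearts (6.75%), with both the highest and the lowest values of those 8 libraries among the infarcted hearts. Cdh5, Esam, Rgcc, Cldn5, Tie1 and Emcn were called with the GC correction, 5 lower and 1 higher (52.5% of all genes called, 23.0% lower and 29.5% higher).

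Other endothelial genes were then counted by list, with no test between lists. Counts of each list after infarction, here and below, are to be set beside 26.3% higher and 22.4% lower over all genes tested. Of 32 further pan-endothelial genes 7 rose and 7 fell (median log2 fold change -0.07). Cd34, a surface sialomucin of endothelium and also of fibroblast-like cells, rose by 1.36 (edgeR adjusted p = 2.92e-05), and Flt1, a receptor for VEGF, fell by 1.05 on the log2 scale (edgeR adjusted p = 0.000487). Calcrl, a receptor component for adrenomedullin, rose by 0.79 (edgeR adjusted p = 0.00214) and S1pr1, a receptor for sphingosine 1-phosphate, fell by 0.67 on the log2 scale (edgeR adjusted p = 0.00266). The 13 genes of cardiac capillaries and fatty acid transport had 9 that fell and 4 that did not pass (median -0.73). Aqp1, the water channel, was at 1642 CPM ± 193 (SD, n = 4) before and 436 ± 163 (SD, n = 4) after, and its log2 fold change was -1.91 (edgeR adjusted p = 0.000408). The capillary transcription factor Tcf15 fell by 1.31 on the log2 scale (edgeR adjusted p = 0.0036). The summed capillary list was at 3625 to 3998 CPM in sham hearts and 866 to 2229 CPM after infarction. Much of that sum was Aqp1 and Cd36, the latter at 917 to 1135 CPM in sham hearts and 189 to 802 CPM after infarction.

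Arterial genes went both ways, with 7 of 14 higher and 6 lower. Gja4, a connexin of arterial endothelium, rose by 1.29 (edgeR adjusted p = 0.000105) and Unc5b, a netrin receptor, by 1.67 (edgeR adjusted p = 0.000106). Among 10 venous and endocardial genes 5 rose and 5 did not pass (median 0.89). Those called higher included Bgn, a matrix proteoglycan also made by fibroblasts, at 201 CPM in sham and 3284 CPM after infarction (log2 fold change 4.03, edgeR adjusted p = 2.83e-05). Vcam1 and Selp, which the list of activated endothelium below holds too, were also called. The smallest p was that of Vcam1, a leukocyte adhesion molecule that went from 6.70 to 49.9 CPM (log2 fold change 2.90, edgeR adjusted p = 1.87e-05). Genes of activated and sprouting endothelium had 13 of 15 tested higher and a median of 1.53. Plvap, the diaphragm protein of fenestrated capillaries, went from 6.19 to 86.1 CPM (log2 fold change 3.79, edgeR adjusted p = 0.000137), and Cxcr4, a chemokine receptor, from 4.28 to 21.9 CPM (log2 fold change 2.35, edgeR adjusted p = 5.66e-05). Vcam1, Cxcr4 and the basement membrane collagen Col4a1 (log2 fold change 1.45, edgeR adjusted p = 0.000127) are also made by other cells of the scar.

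Around the receptors, 5 of 12 genes of the angiopoietin pathway rose and 1 fell. Angpt2, the ligand of TIE2 made by endothelium itself, rose by 1.58 (edgeR adjusted p = 0.00171), and Svep1, a matrix protein that binds TIE1, rose by 3.36 (edgeR adjusted p = 1.74e-05). Pik3r1, a regulatory subunit of PI3 kinase, fell by 1.30 on the log2 scale (edgeR adjusted p = 7.27e-05). Of 15 tested partners of endothelial junctions 4 fell and 11 did not pass, with Cd99l2, an adhesion protein used in leukocyte passage, at -0.58 (edgeR adjusted p = 0.00596) and Jup, the catenin plakoglobin, at -0.51 (edgeR adjusted p = 0.0238). Of 7 lymphatic genes 2 rose and 2 fell. Prox1, the transcription factor of lymphatic fate that heart muscle also makes, fell by 1.25 on the log2 scale (edgeR adjusted p = 0.000364), and Pdpn, also made by fibroblasts, rose by 2.53 (edgeR adjusted p = 0.00056).

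The mix of transcripts from other cell types moved at the same time. Summed over 9 cardiomyocyte markers the level was 86550 to 98837 CPM in sham hearts and 18847 to 55305 CPM after infarction with control vector, with 8 of 9 called lower. The 8 fibroblast markers were all called higher and went from 2090 to 2490 CPM in sham hearts to 9837 to 29974 CPM. Macrophage markers, 7 of 8 higher, went from 268 to 348 CPM to 806 to 1602 CPM. Adipocyte markers, which bear on Fabp4, summed to 10.5 to 21.5 CPM for 6 genes after infarction, with Pparg alone at 6.61 to 15.6 CPM. Adipoq and Lep were at 0 in every sham library. After infarction Plin1 and Cidec were at 1.46 and 3.11 CPM in replicate 2 and 2.48 and 4.96 CPM in replicate 4. In replicates 1 and 3 both were at 0. Fabp4 was highest in replicate 2 (485 CPM) and lowest in replicate 4 (199 CPM), and the part of adipocytes in it was not tested. Platelet markers, which bear on Esam and Pecam1, summed to 7.51 to 13.7 CPM in sham hearts and 10.1 to 29.9 CPM after infarction, with Gp1bb at 0 in every library. The part of the shift in cardiomyocyte, fibroblast and macrophage transcripts in the members' values was not tested.

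**Figure D2:**
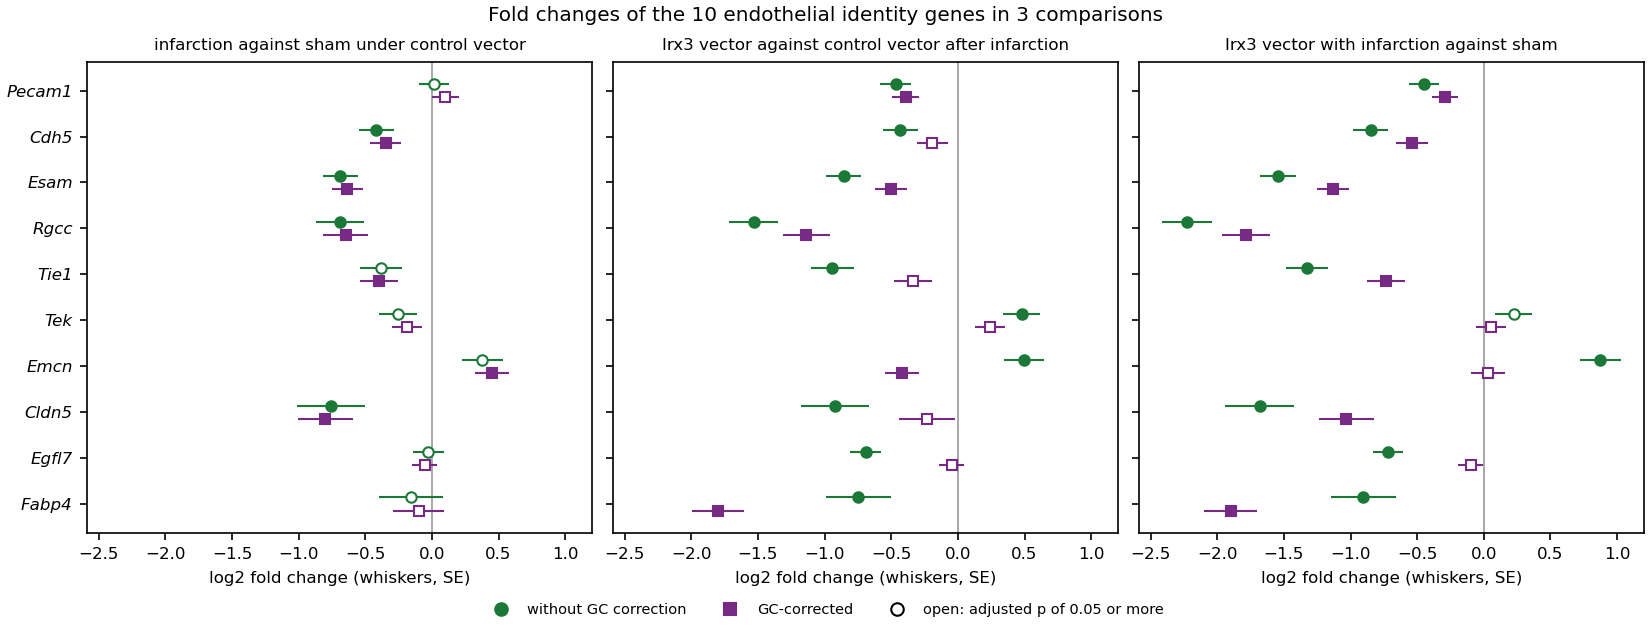
Log2 fold changes of the 10 genes in 3 comparisons (points, with SE as whiskers), without GC correction (circles) and with it (squares), filled where the adjusted p is under 0.05. In the middle panel Egfl7 (-0.69 to -0.05), Tie1 (-0.94 to -0.33) and Cldn5 (-0.92 to -0.23) move towards 0 with the correction, Emcn crosses 0 (0.50 to -0.42) and Fabp4 moves away from it (-0.75 to -1.80).

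The second comparison asked what the Irx3 vector changed in infarcted hearts. It uses the same control vector libraries after infarction as the first, so the 2 comparisons are not independent. Without GC correction all 10 genes were called, 8 lower and 2 higher, where 49.3% of all genes tested were called (24.1% lower and 25.2% higher). Rgcc (2.89-fold), Tie1, Cldn5, Esam, Fabp4, Egfl7, Pecam1 and Cdh5 were lower, and Tek and Emcn were higher. In 9 of 10 members the groups did not overlap (7 lower, 2 higher), which was so for 41.0% of all genes tested (18.9% lower, 22.1% higher). The summed level of the members fell from 1535 to 1017 CPM ± 73.6 (SD, n = 4). With GC correction 5 members passed, all lower, with 25.8% of all genes called (12.2% lower and 13.5% higher). Those 5 were Pecam1, Esam, Rgcc, Fabp4 and, with its direction turned, Emcn. The members' median log2 fold change was -0.72 without and -0.36 with the correction, against 0.00 and 0.02 over all genes tested.

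Pecam1 was at 182, 201, 189.5 and 172 CPM with Irx3 vector, below all 8 libraries with control vector. It fell by 0.47 on the log2 scale (edgeR adjusted p = 0.00435, SE 0.11), and the GC correction left it at -0.39 (edgeR adjusted p = 0.0132). Cdh5 was at 199.8, 222, 208 and 227 CPM, below every infarcted library with control vector, with a log2 fold change of -0.43 (edgeR adjusted p = 0.0164, SE 0.13). With the correction its change was -0.19 (edgeR adjusted p = 0.256). Before the correction the fold changes of Pecam1 and Cdh5 thus lay within 1 SE of each other.

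Esam was at 47.8, 63.3, 58.1 and 60.9 CPM with Irx3 vector, and the highest of these lay under the lowest control vector library (88.4 CPM). It fell by 0.86 on the log2 scale (edgeR adjusted p = 0.000242, SE 0.13), and by 0.50 with the correction (edgeR adjusted p = 0.00946). Cldn5 was at 26.2, 25.8, 26.1 and 30.3 CPM, a narrow band below its range after infarction with control vector. Its log2 fold change was -0.92 (edgeR adjusted p = 0.00908, SE 0.26) without and -0.23 (edgeR adjusted p = 0.437) with the correction. With the correction Esam was called and Cldn5 was not, and the difference between the 2 was not tested.

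Without GC correction the 2 receptors moved in opposite directions. Tie1 was at 113, 149, 123 and 108 CPM with Irx3 vector and fell by 0.94 on the log2 scale (edgeR adjusted p = 0.000426, SE 0.16). Tek was at 75.1, 78.4, 85.0 and 68.3 CPM, above all 4 infarcted libraries with control vector, and rose by 0.48 (edgeR adjusted p = 0.0122, SE 0.14). With GC correction neither was called, Tie1 at -0.33 (edgeR adjusted p = 0.0976) and Tek at 0.24 (edgeR adjusted p = 0.125), with the signs kept. Emcn was at 33.2, 31.7, 26.3 and 33.7 CPM and rose by 0.50 (edgeR adjusted p = 0.0154, SE 0.15) without the correction. With it, Emcn was called lower, at -0.42 (edgeR adjusted p = 0.0284, SE 0.13), so no direction is drawn for it. Leaving out replicate 4 of both infarcted groups, those with the lowest and the highest share of mitochondrial counts, left Emcn at 0.37 (edgeR adjusted p = 0.0698) without the correction.

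Egfl7 lay in a narrow band of 80.8, 84.2, 83.7 and 77.5 CPM, below every other library. It fell by 0.69 on the log2 scale (edgeR adjusted p = 0.000394, SE 0.12), and with the correction its change was -0.05 (edgeR adjusted p = 0.752). Rgcc was at 10.9, 19.2, 15.96 and 18.01 CPM, all under the lowest control vector library after infarction (34.2 CPM). It fell by 1.53 on the log2 scale (edgeR adjusted p = 6.16e-05, SE 0.19) and by 1.14 with the correction (edgeR adjusted p = 0.000823), and no member had a lower value without the correction. Fabp4 was at 157, 199, 173 and 284 CPM, and replicates 2 and 4 of that group reached the range of the control vector hearts, whose replicate 4 was low (199 CPM). It fell by 0.75 on the log2 scale (edgeR adjusted p = 0.0218, SE 0.24) and by 1.80 with the correction (edgeR adjusted p = 0.000107, SE 0.20). Without the correction the call of Fabp4 ended when replicate 2 of the control vector hearts (-0.53, edgeR adjusted p = 0.0639), or replicate 1 (edgeR adjusted p = 0.0563) or 3 (edgeR adjusted p = 0.0578) of the Irx3 vector hearts, was left out.

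**Figure D3:**
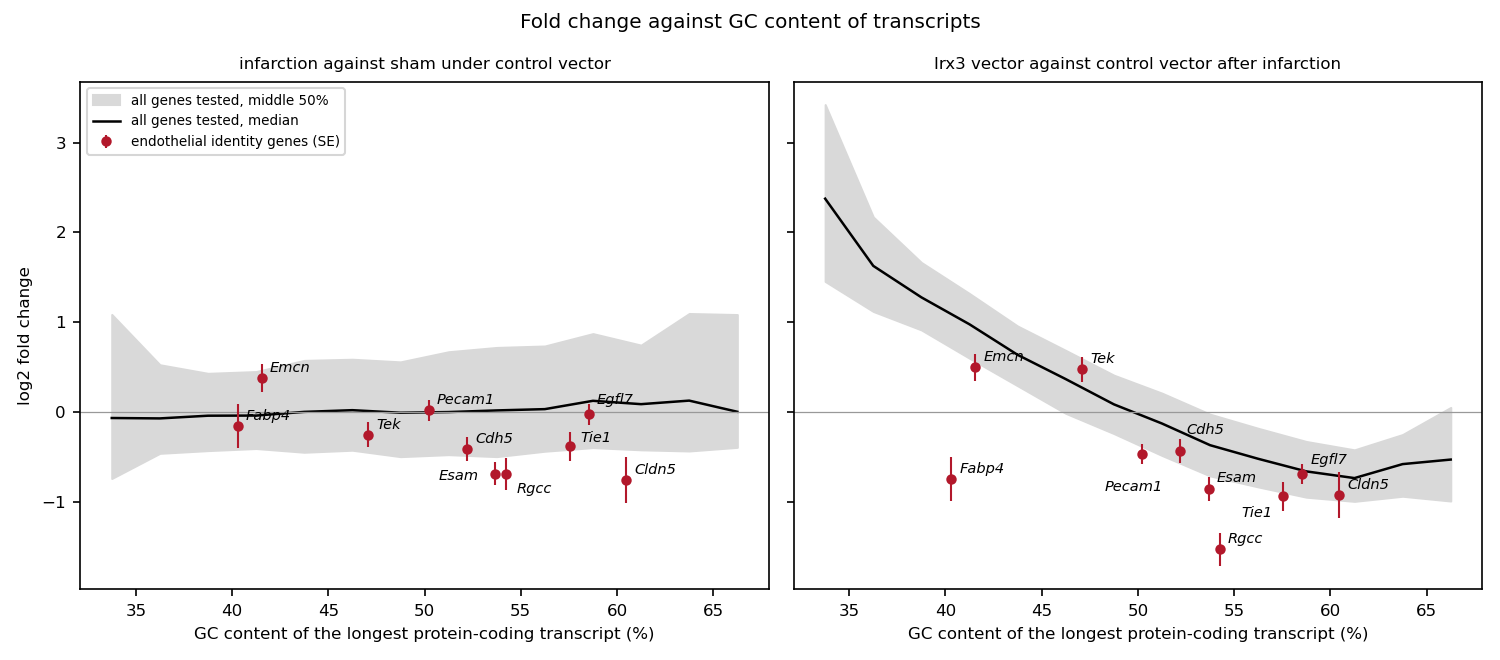
Log2 fold change (vertical) against GC content of the longest protein-coding transcript (horizontal, %) for the 10 genes (points with SE), over the median (line) and middle 50% (band) of all genes tested in bins of GC content. The line is flat for infarction against sham and descends for Irx3 vector against control vector, where Egfl7 lies on it and Fabp4 and Rgcc lie clear of the band.

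How far each member followed its base composition was read from genes of like GC content. Over 15182 genes the log2 fold change for the Irx3 vector was correlated with transcript GC content at a Spearman rho of -0.66, against 0.04 for infarction (across genes, which are not independent replicates). The members covered much of the range, from Fabp4 (40.3% GC) and Emcn (41.5%) through Tek (47.1%), Pecam1 (50.2%), Cdh5 (52.2%), Esam (53.7%) and Rgcc (54.2%) to Tie1 (57.6%), Egfl7 (58.5%) and Cldn5 (60.5%). Among the 1180 genes of 57.5 to 60% GC the median log2 fold change was -0.66 and the middle 50% ran from -0.95 to -0.33, which holds Egfl7 at -0.69 and Tie1 at -0.94. Cldn5, at -0.92, lay inside the middle 50% of its bin too (-0.996 to -0.42, 491 genes). Among the 1089 genes of 40 to 42.5% GC the median was 0.98, with a middle 50% from 0.60 to 1.32. There Emcn at 0.50 lay just under the band and Fabp4 at -0.75 far under it. Rgcc at -1.53 and Esam at -0.86 lay under the band of their bin (-0.71 to -0.03, 2046 genes). Tek at 0.48 lay inside its band (-0.02 to 0.69, 1857 genes), as did Pecam1 at -0.47 and Cdh5 at -0.43 (-0.48 to 0.21, 2017 genes).

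The first 90 coding bases of the 2 members of lowest GC content, of Rgcc and of Cldn5 are shown as samples of their base composition, which need not match that of the whole transcript. G and C are in capitals, and the letters are from the longest protein-coding GENCODE M21 transcript on GRCm38.
Emcn: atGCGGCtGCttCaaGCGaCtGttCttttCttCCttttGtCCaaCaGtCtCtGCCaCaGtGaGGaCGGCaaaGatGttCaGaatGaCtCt
Fabp4: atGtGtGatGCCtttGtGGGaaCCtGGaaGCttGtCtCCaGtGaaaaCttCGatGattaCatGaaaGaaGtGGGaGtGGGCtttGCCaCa
Rgcc: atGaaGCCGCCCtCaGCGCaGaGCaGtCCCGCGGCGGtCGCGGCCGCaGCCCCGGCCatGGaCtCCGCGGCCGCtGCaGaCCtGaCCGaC
Cldn5: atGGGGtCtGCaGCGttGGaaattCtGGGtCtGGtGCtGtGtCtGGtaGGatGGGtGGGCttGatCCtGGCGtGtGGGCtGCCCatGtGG
In these stretches G and C made up 47.8% for Emcn, 46.7% for Fabp4, 75.6% for Rgcc and 60.0% for Cldn5. Rgcc shows that the start of a coding sequence can be far richer in G and C than the transcript as a whole, which was 54.2%. The correction used the whole transcript.

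The third comparison set infarction with Irx3 vector against sham with control vector, and differs in 2 factors at a time. Without GC correction 8 members were lower and 1, Emcn, was higher, where 62.9% of all genes tested were called (27.7% lower and 35.2% higher). The groups did not overlap in these 9, nor in 60.8% of all genes (27.6% lower, 33.2% higher). The lower members ran from Rgcc, at -2.22 (edgeR adjusted p = 2.04e-06, SE 0.19), and Cldn5, at -1.68 (edgeR adjusted p = 0.000115, SE 0.26), to Pecam1, at -0.45 (edgeR adjusted p = 0.00376, SE 0.11). With the correction 7 were lower (53.8% of all genes called, 21.8% lower and 32.1% higher), which were these 8 without Egfl7. Emcn was then at 0.03 (edgeR adjusted p = 0.844) and Egfl7 at -0.10 (edgeR adjusted p = 0.389). Rgcc at -1.79 and Fabp4 at -1.90 were the lowest with the correction, and Tek passed in neither fit, at 0.22 (edgeR adjusted p = 0.176) and 0.05 (edgeR adjusted p = 0.706).

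Promoter sequence is shown for the 2 receptors, which moved apart before GC correction, and for Rgcc and Emcn, the members of most negative and most positive log2 fold change for the vector before GC correction. The windows hold the 250 bases before the transcription start in RefSeq on GRCm38.p6, 5′ to 3′ on the gene's strand: chr4:118489850-118490099 (minus strand) for Tie1, chr4:94739039-94739288 (plus) for Tek, chr3:137340828-137341077 (plus) for Emcn and chr14:79301636-79301885 (minus) for Rgcc. Capitals mark CAGGAA or its reverse complement TTCCTG, a core that factors of the ETS family, known regulators of endothelial genes, can bind.
Tie1: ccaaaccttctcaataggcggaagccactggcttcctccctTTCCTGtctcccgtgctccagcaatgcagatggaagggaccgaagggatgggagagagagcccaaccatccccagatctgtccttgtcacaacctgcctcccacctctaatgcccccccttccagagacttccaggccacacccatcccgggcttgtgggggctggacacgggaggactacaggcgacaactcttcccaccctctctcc
Tek: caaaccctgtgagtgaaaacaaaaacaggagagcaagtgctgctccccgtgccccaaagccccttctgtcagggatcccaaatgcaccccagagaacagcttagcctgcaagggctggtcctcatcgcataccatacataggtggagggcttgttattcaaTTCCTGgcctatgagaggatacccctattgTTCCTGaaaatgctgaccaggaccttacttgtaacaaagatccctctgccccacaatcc
Emcn: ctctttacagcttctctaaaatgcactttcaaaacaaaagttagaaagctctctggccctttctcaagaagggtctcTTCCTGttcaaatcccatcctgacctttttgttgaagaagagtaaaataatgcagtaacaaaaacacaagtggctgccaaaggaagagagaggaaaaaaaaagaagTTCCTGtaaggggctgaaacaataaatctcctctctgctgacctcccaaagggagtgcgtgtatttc
Rgcc: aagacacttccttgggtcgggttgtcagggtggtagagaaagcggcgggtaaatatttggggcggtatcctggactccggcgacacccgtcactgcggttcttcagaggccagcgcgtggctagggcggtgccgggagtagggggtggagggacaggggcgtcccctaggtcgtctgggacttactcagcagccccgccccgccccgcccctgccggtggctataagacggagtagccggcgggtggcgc
The table of promoters matched 6 of the 10 members with 8 windows, since Egfl7 has several starts. CAGGAA on either strand was in 5 of these 8 windows, and in 25.7% of 32851 windows of the same length. Tek and Emcn had 2 matches each and Tie1 had 1. The other 2 windows with a match were both of Egfl7, so the 5 windows are not of 5 genes. Rgcc and Cldn5 had no match. The related core CCGGAA was in 0 of the 8 windows and in 12.03% of all, and the GATA motif AGATAA was in 0 of the 8 and in 9.99% of all. A match describes letters only. Tek and Tie1 both hold the motif, and moved in opposite directions without GC correction.

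To ask whether members changed unequally, each was set against the mean log2 CPM of Pecam1 and Cdh5 in the same library, a ratio that does not depend on library scaling. After infarction with Irx3 vector Rgcc was at -3.67 ± 0.32 (SD, n = 4) on this log2 scale, against -2.58 ± 0.22 (SD, n = 4) with control vector, a difference of -1.09. Tie1 and Esam differed by -0.49 and -0.41, and Tek and Emcn by 0.94 and 0.95. In each of these 5 the groups did not overlap, and the two-sided exact permutation test gave p = 0.0286, the smallest that 70 assignments of 4 against 4 libraries allow. After adjustment over 16 tests each was at p = 0.0571, so 0 of 16 ratios passed 0.05, with 8 at an unadjusted exact p under 0.05. Those 8 were at the smallest exact p that the design allows. No larger difference in them could have passed, so the 0 does not show that members changed equally. The share of all genes whose ratio to Pecam1 and Cdh5 kept the groups apart was not computed. The counts of 5 and 8 are therefore not read as particular to the members. Cldn5 (-0.44, exact p = 0.114), Egfl7 (-0.24, exact p = 0.0857) and Fabp4 (-0.27, exact p = 0.4) overlapped between the groups. For infarction against sham Esam differed by -0.49, Rgcc by -0.51 and Emcn by 0.59, each at an exact p = 0.0286 and adjusted p = 0.0571, and the other 5 ratios overlapped. With GC-corrected values the difference for the Irx3 vector was 0.53 for Tek and -0.84 for Rgcc (each exact p = 0.0286, adjusted p = 0.0762). Esam was then at -0.20 (exact p = 0.0571) and Tie1 at -0.03 (exact p = 0.771), so that the groups overlapped for both. Egfl7 turned to 0.25 and Fabp4 reached -1.51 (each exact p = 0.0286, adjusted p = 0.0762). Emcn turned to -0.14 (exact p = 0.429) and Cldn5 to 0.07 (exact p = 0.714). For infarction the corrected differences of Esam (-0.52) and Rgcc (-0.55) were at exact p = 0.0286, and the others at 0.0571 or more. In all, 0 of 16 corrected ratios were at an adjusted p under 0.05, with the same limit from the smallest exact p.

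**Figure D4:**
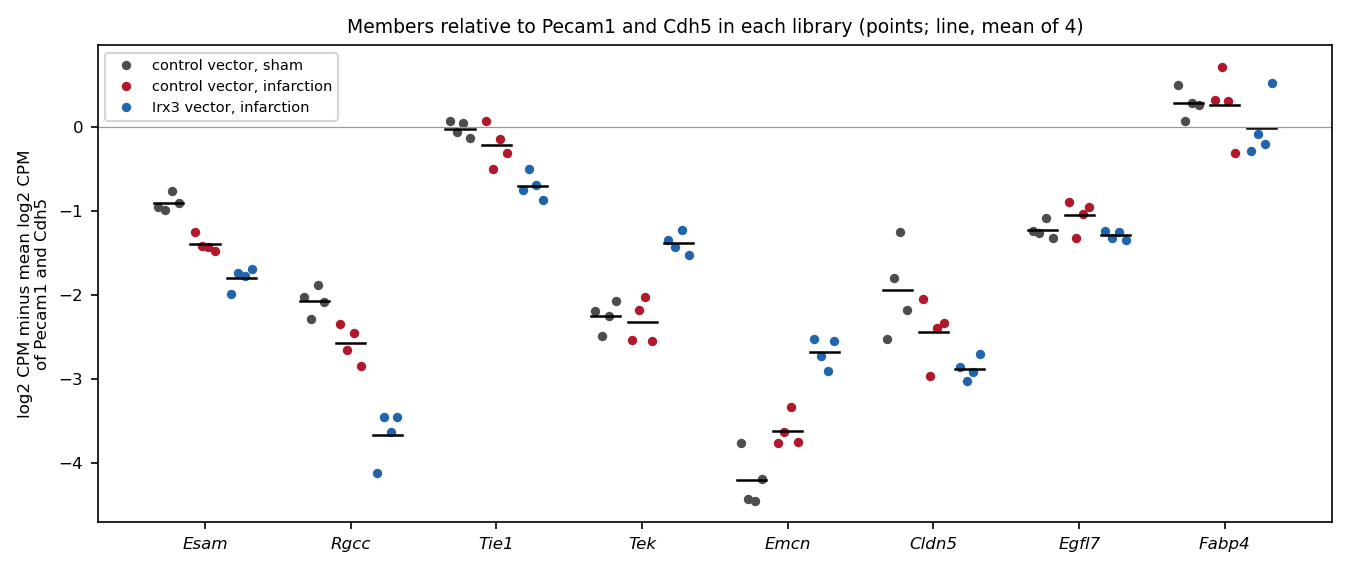
Log2 CPM of 8 members minus the mean log2 CPM of Pecam1 and Cdh5 (vertical, log2 units) in each library, without GC correction, with lines at the mean of 4. Rgcc and Esam descend across the groups (Rgcc to -3.67), Tek and Emcn are highest with Irx3 vector (Emcn -2.68), and Fabp4 overlaps between all groups.

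Across the 12 libraries the members did not share a single profile. Against their mean centred log2 CPM profile, Cdh5 was nearest (root mean square difference 0.09), then Egfl7 (0.16) and Pecam1 (0.21), and Emcn (0.75), Rgcc (0.60) and Tek (0.53) were farthest. The order changed with GC-corrected values, where Tie1 (0.13) and Cdh5 (0.14) were nearest, Fabp4 (0.62) and Rgcc (0.47) were farthest, and Egfl7 and Emcn were at 0.28 and 0.40. The genes outside the set with the most like profile, among 11162 whose log2 CPM averaged 2 or more, were Sema7a (0.08), Bsdc1 (0.09), Rab11fip3 (0.10), Smim4 (0.10) and Vps52 (0.10). With GC-corrected values the 5 were others, Hip1r (0.09), Adrm1 (0.10), Golga3 (0.10), Fam234a (0.10) and Psmd4 (0.11). As the group means and GC trends enter every profile, this likeness is a description of 12 libraries.

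Other endothelial genes were read with the vector in the same way. Of 32 further pan-endothelial genes 16 were lower and 5 higher (median log2 fold change -0.37), and with GC correction 15 were lower and 4 higher. The 5 higher without the correction were Kdr, Ets1, Calcrl, Cd93 and Cyyr1. Kdr went from 124 to 291 CPM, and its mean GC-corrected log2 CPM from 6.92 to 8.17. Calcrl was at 13.3 to 19.5 CPM with control vector and 26.3 to 39.0 CPM with Irx3 vector. Genes with the smallest p in this list were all lower. Ramp2, the partner of the adrenomedullin receptor, went from 83.2 to 23.6 CPM, a log2 fold change of -1.82 (edgeR adjusted p = 7.13e-06) that was -1.13 with the correction (edgeR adjusted p = 0.00013). Robo4, an endothelial guidance receptor that steadies junctions, went from 120.1 to 44.5 CPM, at -1.43 (edgeR adjusted p = 8.09e-06) and -0.98 with the correction (edgeR adjusted p = 5.12e-05). Klf4, a transcription factor raised by blood flow, and Eng, a TGF-beta co-receptor, were lower by the same test, at -1.10 and -0.999, and at -0.67 and -0.40 with the correction. The shares of this list and of those below called lower, before and after the correction, can be set beside 24.1% and 12.2% of all genes. Shares called higher can be set beside 25.2% and 13.5%.

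Capillary genes had 6 of 13 lower and 2 higher, and 7 lower and 1 higher with the correction. Gpihbp1, which holds lipoprotein lipase on capillary endothelium, went from 116 to 36.4 CPM, at -1.68 (edgeR adjusted p = 0.000288), and -1.34 with the correction (edgeR adjusted p = 0.0032). Kank3 was at -1.44 and -0.77 with the correction, called in both fits, and Slc28a2, a nucleoside transporter, was higher in both, at 1.14 and 0.87. Arterial genes had 7 of 14 lower and 7 that did not pass, and with the correction 6 lower and 2 higher. Gja4, which infarction raised, was lower with the vector at -1.90 (edgeR adjusted p = 1.61e-05) and -1.22 with the correction, and Notch4 and Notch1, receptors that specify arterial endothelium, were at -1.47 and -1.09, and at -0.80 and -0.48 with the correction, all called. Among 10 venous and endocardial genes 5 were lower and 5 did not pass, led by Cytl1 at -2.88 (edgeR adjusted p = 5.09e-05), and 3 were lower with the correction. Ephb4, the venous ephrin receptor, was among the calls that ended, at -0.93 without and -0.29 with the correction (edgeR adjusted p = 0.0607).

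**Figure D5:**
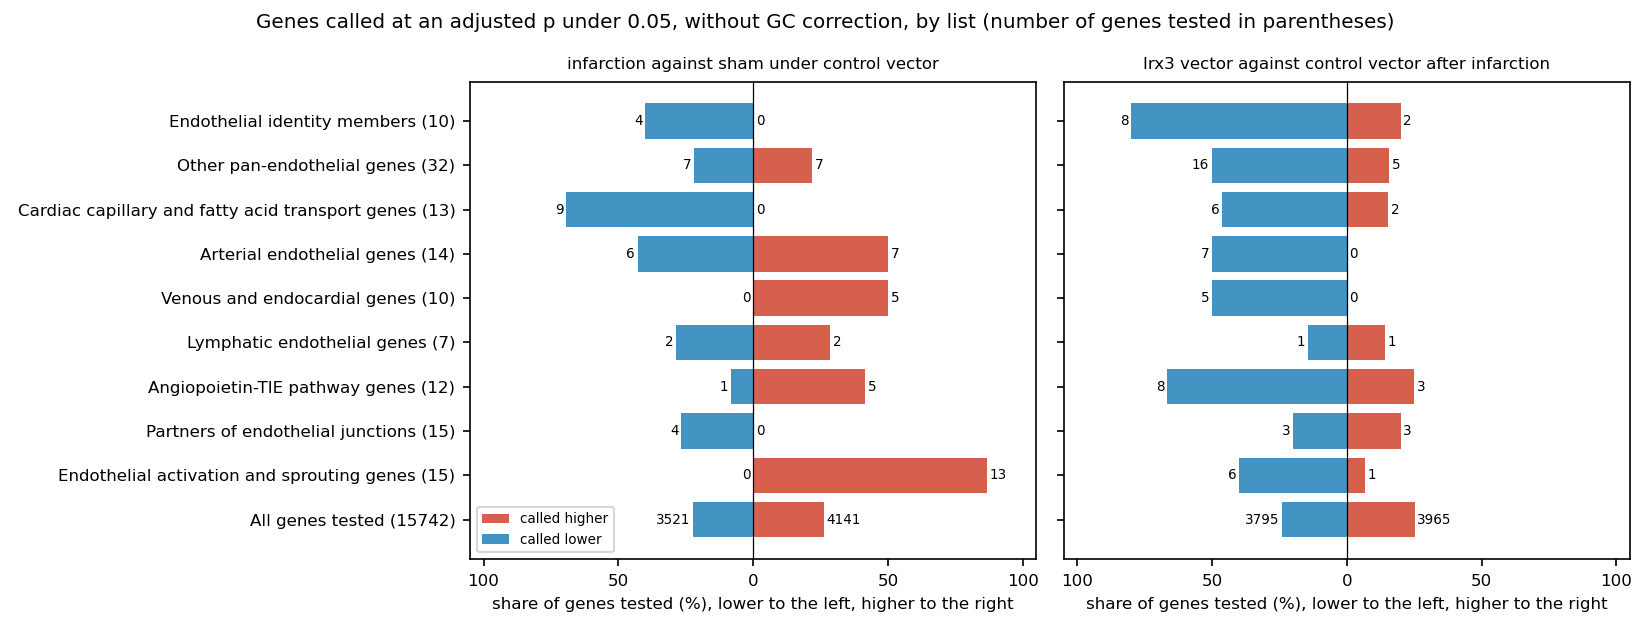
Share of tested genes called higher (right) and lower (left) in each list, in %, without GC correction, with counts at the bars. The members have 4 lower after infarction and the list of activated endothelium has 13 of 15 higher, against 22.4% lower and 26.3% higher over all genes. With the Irx3 vector the members have 8 lower and 2 higher, against 24.1% lower and 25.2% higher over all genes. With GC correction, which is not drawn, the members have 5 lower and 0 higher with the vector.

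In the angiopoietin pathway 8 of 12 genes were lower and 3 higher with the vector, and 4 lower and 1 higher with the correction. Angpt1, the ligand of TIE2 made by cells around vessels, went from 6.15 to 19.6 CPM, at 1.67 (edgeR adjusted p = 0.00171), but was at 0.49 with the correction (edgeR adjusted p = 0.198). Ptprb, the phosphatase that acts on TIE2, was lower in both fits, at -0.67 (edgeR adjusted p = 0.00337) and -0.85 (edgeR adjusted p = 0.00146). Angptl1 was lower in both as well, at -1.71 and -2.38. Junction partners had 3 of 15 lower and 3 higher, and 1 lower and 3 higher with the correction. The actin linker Vcl was lower in both fits, at -0.58 and -0.66, and Ctnnd1, the catenin that keeps VE-cadherin at the surface, was higher in both, at 0.62 and 0.47. Jup was called at -0.71 without the correction and was at -0.06 with it (edgeR adjusted p = 0.785). Genes of activated endothelium had 6 of 15 lower and 1 higher, and 3 lower and 1 higher with the correction. Pgf, a ligand of Flt1, was at -1.76 and -1.21, and Aplnr, the apelin receptor, was the gene called higher, at 2.01 and 2.13, each called in both fits. Of 7 lymphatic genes Prox1 was higher, at 1.92 and 1.49 with the correction, called in both, and Flt4 was called lower without the correction alone (-0.72, and -0.13 with it).

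Markers of other cell types were also compared between the infarcted groups. Cardiomyocyte markers summed to 27701 to 45460 CPM with Irx3 vector, inside the control vector range of 18847 to 55305 CPM. Of those 9 markers Pln was called higher (log2 fold change 2.86, edgeR adjusted p = 0.00212) and Tnnt2 (-0.85, edgeR adjusted p = 0.0135) and Actn2 (-0.78, edgeR adjusted p = 0.0155) lower, and with GC correction Pln alone was called. Fibroblast markers summed to 3324 to 16053 CPM, with 3 of 8 called lower (4 with GC correction), and overlapped the control vector range of 9837 to 29974 CPM. Macrophage markers summed to 489 to 889 CPM, against 806 to 1602 CPM with control vector, with 4 of 8 lower (1 with GC correction). Pericyte and smooth muscle markers summed to 1319 to 1518 CPM, above the control vector range of 1167 to 1307 CPM. In sham hearts their sum was 1358 to 1484 CPM. Among these 9 markers 3 were higher and 2 lower with the vector (2 higher and 0 lower with GC correction). Adipocyte markers summed to 7.57 to 11.8 CPM. The part of these cell types in the members' values was not tested.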

How the data were processed

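Polyadenylated RNA of 12 left ventricle libraries, 3 groups of 4, was sequenced. The values are raw read counts per gene, as the authors deposited them. Reads were trimmed with fastp and the genome build was GRCm39 (mm39), per the submitters' processing notes. For aligner, counting tool, annotation and strand the entry is: not given in the sources used here. Reads of a gene and of an overlapping or antisense gene can thus not be told apart. Groups came from the sample titles, and the labels give 1 batch for all libraries. Of the 66 pairs of libraries none agreed within counting noise (smallest chi-square per degree of freedom 7.31).

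Counts were fitted with edgeR 4.0.16 in R 4.3.3 (quasi-likelihood, robust, TMM factors, filterByExpr by group), with 1 term per group, 9 residual degrees of freedom and Benjamini-Hochberg adjustment over the 15742 genes tested. Calls are at an adjusted p under 0.05. CPM uses the TMM factors, and log2 CPM a prior count of 1. The p-values measure the spread between libraries. The GC correction fitted a natural spline (6 degrees of freedom) in each library of the deviation of log2 CPM on transcript GC content (genes of mean log2 CPM of at least 2, 3 rounds, residuals past 2.5 median absolute deviations left out), used as an offset. GC content and length came from the longest protein-coding transcript of GENCODE M21 on GRCm38, matched by symbol for 96.4% of genes tested, and from that build no position was set against the counts. Ratios were tested with a two-sided exact permutation test. The fit was also run on simulated counts without a GC trend, which say nothing of its calls where libraries differ in that trend.

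The members and gene lists were chosen with earlier results of these data known. Named are all members, up to 4 genes of smallest p per list and comparison, Irx3, and the 5 genes of most like profile. The pan-endothelial and capillary genes called higher with the vector are named too, as are genes whose level is given beside a result. Alternatives were RLE and upper-quartile factors, DESeq2 1.42.0, no filter, a CPM of 1 in 4 libraries, only the groups compared, mitochondrial genes removed, a replicate block, glmTreat at a fold of 1.5, the GC correction (also with the block), each library left out, and for ratios a prior count of 0.25 and other references. Leaving out replicate 4 of both infarcted groups, GC content from the longest transcript of any type, and ratios of GC-corrected values were chosen after seeing the data.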

Additional observations from a re-analysis of the deposited data

Results flagged for a closer look

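Of 30 groups of 4 libraries, 10 genes in 3 groups, 2 had a library whose gap to its nearest neighbour took more of the group's range than Dixon's 95% critical value allows, where chance flags about 1 in 20. Rgcc in sham replicate 3 was at 84.2 CPM, against 70.1 to 72.4 CPM in the other 3 (gap over range 0.836). Cldn5 in replicate 4 of infarction with Irx3 vector was at 30.3 CPM, against 25.8 to 26.2 CPM in the other 3 (gap over range 0.902).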

How the results depend on the processing

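For infarction against sham 4 members were called, all lower. With the replicate block 2 were called, against a fold of 1.5 with glmTreat 0, and with single libraries left out 2 to 5, with 2 without sham replicate 2 or sham replicate 3. Over all genes tested the share called was 42.1% with the block and 23.4% with glmTreat. With single libraries left out that share was 41.4 to 52.6%. Cdh5 lost its call with no filter (edgeR adjusted p = 0.0646), and Tie1 was called lower with RLE factors (edgeR adjusted p = 0.0419) and with DESeq2 (adjusted p = 0.0213). Called higher were 0, and 1 with the GC correction, with that and the replicate block, with GC content from the longest transcript of any type and without replicate 4 of both infarcted groups. That count was 0 to 1 with single libraries left out, and 1 without sham replicate 1. For Irx3 vector against control vector 10 were called (8 lower, 2 higher). This became 3 (3 lower, 0 higher) with glmTreat and 5 (5 lower, 0 higher) with each of the 3 GC corrections, the replicate block included. Of all genes tested 6.89% were lower with glmTreat, 12.2% with the GC correction and 8.37% with the block added to it. With GC content from the longest transcript of any type 13.2% were lower. The count of members was 9 to 10 with single libraries left out (7 to 8 lower), where 42 to 51.6% of all genes were called. Fabp4 lost its call when only the 2 groups compared were fitted (edgeR adjusted p = 0.0537), and 1 member was higher without replicate 4 of both infarcted groups. Against sham with Irx3 vector 8 were lower, and 5 with glmTreat, and 1 was higher, and 0 with each GC correction. In this comparison 13.2% of all genes tested were lower with glmTreat.

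Signs turned where values were near 0 or with the GC correction. Pecam1 after infarction (0.02) was -0.0093 with RLE factors, -0.0094 with DESeq2 and -0.077 to 0.062 with single libraries left out. With them left out Egfl7 (-0.03) was -0.18 to 0.014 and Fabp4 (-0.16) -0.43 to -0.03, and Fabp4 was 0.032 without replicate 4 of both infarcted groups. Emcn with Irx3 vector (0.50) was -0.42, -0.42 with the replicate block and -0.45 with the transcript of any type. Among ratios after infarction, Tie1 (-0.20) was 0.022, Tek (-0.07) 0.15 and Fabp4 (-0.02) 0.20 against Cdh5 alone. Against all other members Tek was 0.038 and Fabp4 0.091. Fabp4 was 0.0019 with GC-corrected values, and with single libraries left out its ratio was -0.17 to 0.17 and that of Tek -0.17 to 0.0076. With GC-corrected values Emcn was -0.14, Cldn5 0.071 and Egfl7 0.25 for the vector. The cause was not tested.

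Replicate numbers did not pair the libraries: residual correlations of the 12 same-numbered pairs ran from -0.42 to 0.10 (median -0.08), and 0 libraries correlated best with their own number. With the replicate block the calls of Cdh5 (edgeR adjusted p = 0.0508) and Cldn5 (edgeR adjusted p = 0.0624) after infarction and of Fabp4 with Irx3 vector (edgeR adjusted p = 0.059) ended. With the block added to the GC correction, so did the corrected calls of Cdh5 after infarction (edgeR adjusted p = 0.0546) and of Pecam1 with Irx3 vector against sham (edgeR adjusted p = 0.0551), where 6 members were then called lower and not 7. In that fit 19.2% of all genes tested were lower with Irx3 vector against sham. The GC content of a transcript and the group cannot be told apart where every library of 1 group has its own GC trend.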
